A study of Mus musculus with 4 samples.

Results

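The 240 regions described here are autosomal stretches of the mouse genome that were called as open chromatin in both wild-type (WT) libraries and in neither library lacking Tcf1 and Lef1 (double knockout, DKO). They were found by merging the peaks of 4 deposited lists wherever peaks overlapped by at least 1 bp, which gave 38986 union regions, 38110 of them on the autosomes. Regions called in both WT lists and in no DKO list (WT-only regions) made up 0.630% of the autosomal regions and 2.73% of the 8783 autosomal regions called in both WT lists. They were chosen by the presence and absence of calls in the 4 lists. Their number, folds and distances to DKO calls are therefore a description, without a test.

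All 4 libraries came from naive CD8+ T cells of mouse spleen sorted as GFP+, TCRbeta+, CD62L high and CD44 low to intermediate, then kept for 72 h with IL-7 and IL-15. Per the series' design text, mice of both groups carried hCD2-Cre, a recombinase under a human CD2 promoter, and a Rosa26 reporter that turns on GFP where Cre has acted. The WT libraries (2) had intact Tcf1 and Lef1, and the DKO libraries (2) came from mice with both genes floxed, labelled Tcf1-/-Lef1-/-. Strain background, age, sex and whether replicates were separate animals are not stated in the labels, so the spread between replicates may be technical. The released DNA was sequenced after DNase I digestion (DNase-seq). The comparison asks which accessible sites depend on the presence of these factors.

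DNase I cuts DNA where nucleosomes are displaced, mostly at promoters, enhancers and insulators. Tcf1, encoded by Tcf7, and Lef1 are related HMG-box proteins that bind and bend DNA, act downstream of Wnt signalling, and are abundant in T cell precursors and in naive and memory CD8+ T cells. IL-7 and IL-15 sustain CD8+ T cells and drive their slow division without antigen.

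The lists of WT replicates 1 and 2 held 17216 and 10883 autosomal peaks, and those of DKO replicates 1 and 2 held 34036 and 20934. DKO replicates 1 and 2 also had 55 and 57 peaks on chromosome Y, where both WT lists had 0. A difference in sex therefore cannot be told apart from genotype, also on the autosomes. Read totals are not in the lists. The number of fragments over each summit (pileup) and the local background were solved from each peak's deposited fold and p. The smallest pileup of a listed peak was 10 and 9 fragments in WT replicates 1 and 2, and 8 in each DKO list. The lowest background was 1.5, 1.47, 1.23 and 1.15 fragments in the same order of libraries. At the lowest background a site thus needed fewer fragments for a place in a DKO list than in a WT list. Absence from a list means that a site did not pass the listing thresholds, with folds just above 4 as the smallest kept in each list, and not that it was closed.

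Regions of both WT lists that were absent from the longer DKO list were mostly absent from the shorter one too. Of the 8783 autosomal regions called in both WT lists, 280 were absent from DKO replicate 1 and 794 from DKO replicate 2. The 240 WT-only regions were 85.7% of those absent from DKO replicate 1 and 30.2% of those absent from DKO replicate 2. Another 554 regions were absent from DKO replicate 2 only and 40 from DKO replicate 1 only. These 594 regions with 1 DKO call and the 7949 regions called in all 4 lists serve below as the neighbours of the class.

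WT-only regions were mostly weak sites within the WT lists. Their fold enrichment, the summit pileup over the local background, ran from 4.02 to 13.1 with a median of 5.61 in WT replicate 1. In WT replicate 2 it ran from 4.003 to 10.6 with a median of 5.27. Ranked by p within its own list, the median WT-only region stood at the 32.5th percentile of WT replicate 1 and the 27.8th of WT replicate 2, where 100 is the strongest peak. In 145 of the 240 (60.4%) both WT peaks lay below the median of their lists. That share was 51.5% for regions with 1 DKO call and 19.1% for regions called in all 4 lists. In fragments, WT-only regions had a median pileup of 16 and 14 in WT replicates 1 and 2, against 17 and 15 with 1 DKO call and 24 and 20 in all 4 lists. WT-only regions and regions with 1 DKO call thus lay close together in strength, and both lay below the shared regions.

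**Figure D1:**
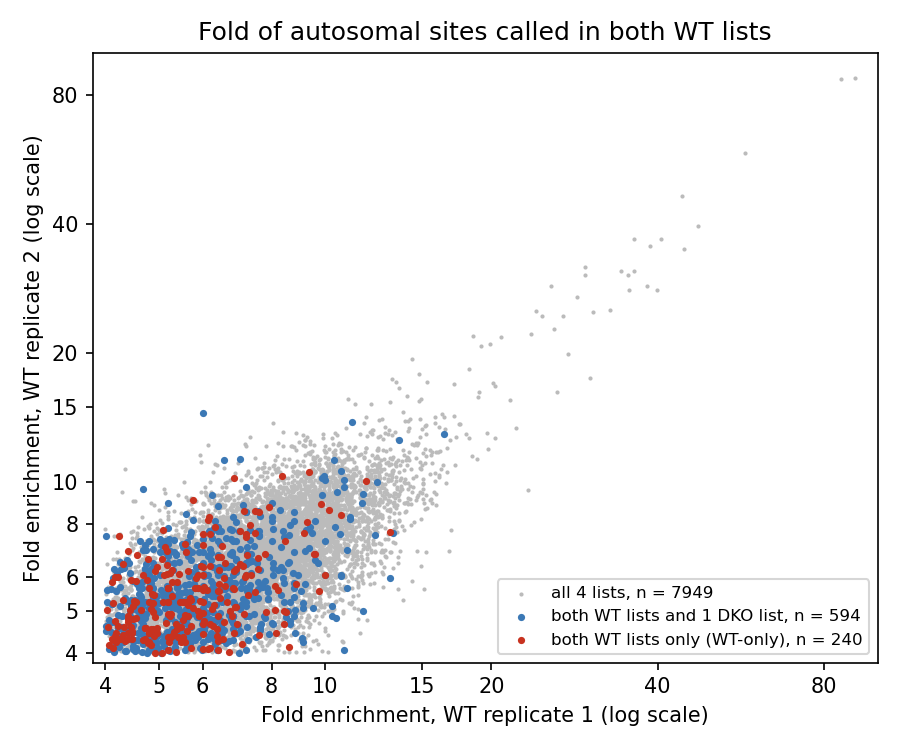
Fold enrichment in WT replicate 1 (x axis, log scale) against WT replicate 2 (y axis, log scale) for autosomal regions called in both WT lists, 1 point per region, coloured by the DKO lists that also held it. The 240 WT-only regions crowd near the listing threshold of about 4, within the cloud of the 594 regions with 1 DKO call, and none exceeds 13.1 in WT replicate 1.

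The share of WT-only regions fell with strength. For each region, the lower of its folds in the WT lists was taken. With a lower fold from 4 to 4.5, 75 of 841 regions (8.92%) were WT-only. Between 6 and 7 this was 26 of 1909 (1.36%), and from 10 up it was 1 of 367 (0.272%). Regions called in 1 DKO list ran from 18.8% in the weakest group to 1.33% between 8 and 10 and 1.63% from 10 up. Most weak WT sites were nevertheless listed in the DKO libraries. Of the 841 weakest, 75 were in no DKO list and 158 in only 1. In DKO replicate 1, 756 were called, with a median fold of 9.12 against 8.50 for all peaks of that list. Where called in DKO replicate 2, their median fold was 6.92 against 7.24 for all peaks of that list.

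**Figure D2:**
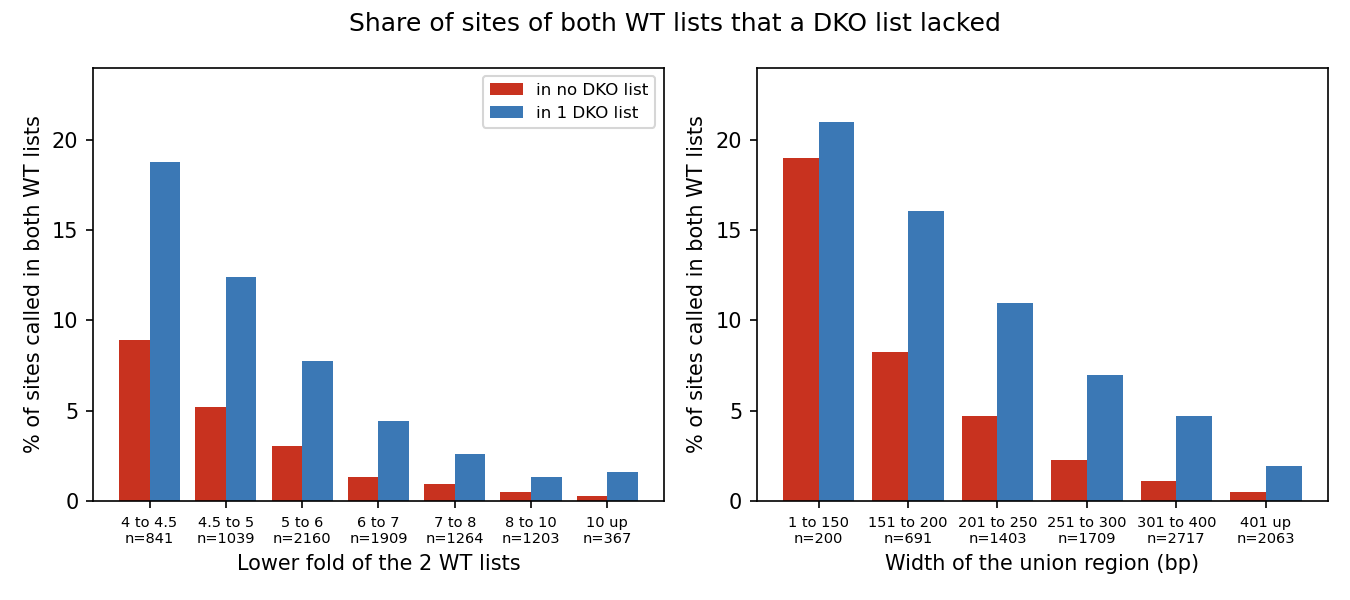
Percentage of autosomal regions of both WT lists that were in no DKO list (red, WT-only) or in 1 DKO list (blue), by the lower of the WT folds (left) and by the width of the union region (right), with the number of regions under each pair of bars. The WT-only share falls from left to right, from 8.92% to 0.272% by fold and from 19.0% to 0.485% by width, and the share in 1 DKO list does too except for a rise from 1.33% to 1.63% in the last fold group. Union widths of regions with a DKO call include bases added by DKO peaks, so part of the fall by width is built in.

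WT-only regions were narrow. The median width was 218 bp, with a range from 105 to 631 bp, against 246.5 bp with 1 DKO call and 320 bp in all 4 lists. The union width of the other sets includes bases added by DKO peaks, so the WT peaks were also measured alone. In WT replicate 1 the median peak width was 175 bp in WT-only regions, 165 bp with 1 DKO call and 220 bp in all 4 lists. Among weak sites, those with a lower WT fold under 5, these medians were 165, 165 and 189 bp (129, 287 and 1464 regions). Narrowness relative to the regions with 1 DKO call was therefore not seen in the WT peaks themselves.

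The WT summits of most WT-only sites lay close together. The rule requires the WT peaks to overlap, and their median widths were 175 and 156 bp, so short distances are partly built in. The distance between the WT summits had a median of 22 bp, and was at most 50 bp in 175 of 240 regions (72.9%). For regions with 1 DKO call it was at most 50 bp in 71.7%, and for regions called in all 4 lists in 74.7%. Summits lay more than 100 bp apart in 28 WT-only regions. All but 2 of the 240 held a single peak in each WT list. Across WT-only regions the log2 folds of the WT replicates had a Pearson correlation of 0.47 (n = 240). It was 0.45 across regions with 1 DKO call (n = 594) and 0.66 across the regions of all 4 lists (n = 7949). The median absolute log2 ratio of the WT folds was 0.215, 0.252 and 0.262 in the same order of sets. These regions share their libraries, and the folds of WT-only regions span a narrower range, so the coefficients are descriptive.

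The strongest WT-only regions were well placed above the thresholds in both WT libraries. Positions are mm9 and count from 1. At chr7:134772289-134772558 the pileups were 33 and 26 fragments over backgrounds of 1.86 and 1.68 in WT replicates 1 and 2, folds of 11.9 and 10.1. Its peaks stood at the 94.6th and 91.5th percentiles of the WT lists, and the nearest DKO peak was 28054 bp away. At chr9:31078840-31079134 the pileups were 30 and 29 fragments, the percentiles 85.9 and 94.7, and the nearest DKO peak 8599 bp away. At chr11:105306375-105306480, only 106 bp wide, 28 and 23 fragments were found. This narrow site was remote, with the nearest DKO peak at 80534 bp and the nearest other WT call at 146884 bp.

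The next 3 regions are next by lower fold among those at or above the 75th percentile of both WT lists. They lay between 779 and 11397 bp from a DKO peak. At chr19:45870843-45871064 the pileups were 30 and 26 fragments in WT replicates 1 and 2, with summits 3 bp apart and a DKO peak at 5479 bp. At chr6:99436208-99436518 they were 31 and 22, with a DKO replicate 1 peak 779 bp away and the nearest DKO replicate 2 peak at 33272 bp. At chr10:19041426-19041964, one of the widest at 539 bp, they were 30 and 20, with DKO peaks at 11397 and 11404 bp. These 6 regions, and one on chromosome 11 described last, were the 7 in which both WT peaks ranked at or above the 75th percentile of their lists. This was 2.92% of WT-only regions, 3.54% of regions with 1 DKO call and 23.6% of regions called in all 4 lists.

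The remaining 4 of the 10 with the highest lower fold ranked below the 75th percentile of 1 WT list. At chr2:126746216-126746468 the pileups were 36 and 18 fragments, percentiles of 96.9 and 66.0. At chr17:57306634-57306824 they were 24 and 18, percentiles of 77.5 and 65.8. In the others WT replicate 2 had the higher pileup. At chr9:118105897-118106098 the pileups were 22 and 28 fragments, percentiles of 69.8 and 93.7, and at chr4:125889175-125889386 they were 23 and 26, percentiles of 69.0 and 87.5. The WT summits of all 10 regions lay 3 to 16 bp apart.

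For the surroundings of these 10 regions, the nearest site called in all 4 lists was taken for each. It lay between 8858 and 591474 bp away. At these 10 sites folds ran from 5.50 to 11.1 in WT replicate 1 and from 4.16 to 9.38 in WT replicate 2. They ran from 9.74 to 18.2 in DKO replicate 1 and from 5.46 to 14.03 in DKO replicate 2. Beside the region at chr7:134772289-134772558, for example, the site at chr7:134732022-134732301 had folds of 10.04 and 7.35 in the WT lists and 13.8 and 14.03 in the DKO lists. Both DKO folds were above both WT folds at 5 of the 10 sites, and this share was not taken over all 7949 such sites. At chr9:118076828-118077102, beside chr9:118105897-118106098, they were 10.14 and 8.11 in the WT lists and 12.02 and 5.46 in the DKO lists. The median fold of all listed peaks was 6.43 and 6.13 in WT replicates 1 and 2. In DKO replicates 1 and 2 it was 8.50 and 7.24. Whether the count of 5 is particular to these sites was not tested. These sites were picked for having a call in every list, so they show the fold that each library reached nearby and not how often DKO calls were found there.

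Both sides of the rule's edge held regions near the listing thresholds, in WT fold on 1 side and in DKO fold on the other. These regions were picked for their lowest folds, so their closeness to the thresholds is built in. The 5 WT-only regions with the lowest lower fold had values of 4.003 to 4.03, the weakest being chr5:73134432-73134612 with folds of 5.07 and 4.003 in WT replicates 1 and 2. Just outside the class were 5 regions whose single DKO peak had a fold of 4.04 to 4.09 in DKO replicate 1. One of them, chr5:138298199-138298472, had WT folds of 9.97 and 6.08, and chr1:66599003-66599398 had 7.20 and 6.46. A slightly stricter DKO list would have made these regions WT-only. For all 554 regions with a DKO replicate 1 call alone, the median DKO fold was 7.63, and for the 40 with a DKO replicate 2 call alone it was 5.83.

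Most WT-only regions lay in neighbourhoods with DKO calls. The nearest DKO peak was a median of 7939 bp away (quartiles 3078.5 and 22998.5 bp). For regions with 1 DKO call the nearest other region with a DKO call lay a median of 6644 bp away, and for regions called in all 4 lists 7502 bp. Only 21 WT-only regions (8.75%) had such a neighbour within 500 bp, against 13.0% and 15.9% in those sets. More than 50 kb separated 22 WT-only regions (9.17%) from any DKO call, against 7.74% and 6.01%. The share with a close DKO neighbour was thus lowest for WT-only regions, a difference that was not tested. For calls in a WT list the medians were 14641.5, 13278 and 14532 bp.

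**Figure D3:**
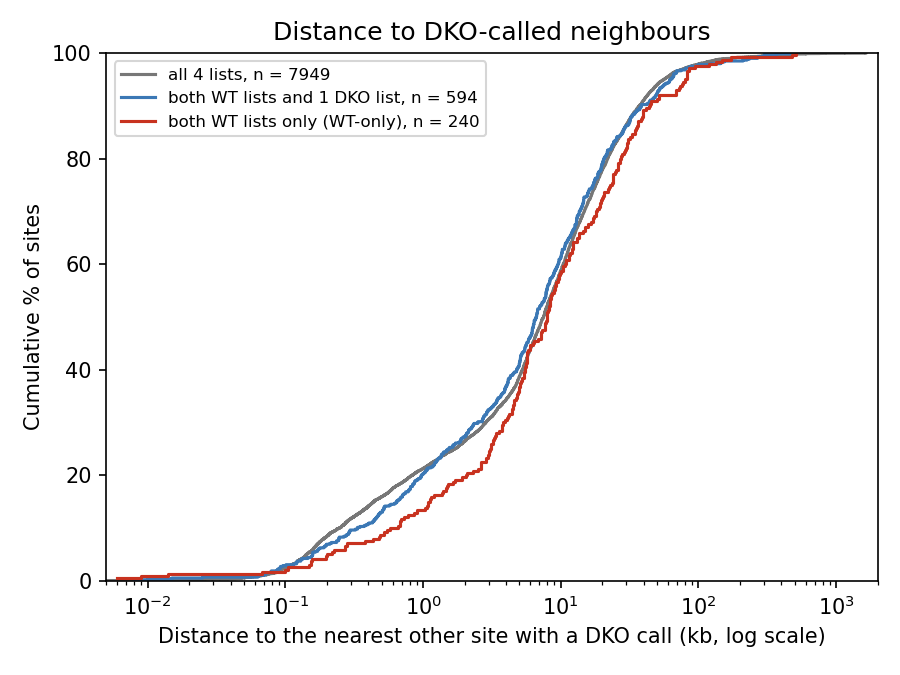
Cumulative percentage of autosomal regions (y axis) by distance to the nearest other region with a DKO call (x axis, kb, log scale), for WT-only regions (red), regions of both WT lists and 1 DKO list (blue) and regions of all 4 lists (grey). The red line runs lowest below about 5 kb, and its quartiles (3078.5, 7939 and 22998.5 bp) are also the highest of these sets. Within 500 bp, 8.75% of WT-only regions have such a neighbour.

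Of the 21 with a close DKO peak, 12 adjoined a DKO-called region that neither WT list held. The share of all DKO-called regions that neither WT list held was not taken. The DKO lists (34036 and 20934 autosomal peaks) were longer than the WT lists (17216 and 10883). The 12 of 21 are therefore not shown to be unusual. At chr13:43884397-43884818, with WT folds of 5.64 and 6.21, a DKO replicate 1 peak of fold 4.45 ended 6 bp away. At chr17:73298630-73298832, with WT folds of 4.30 and 4.41, a peak of both DKO lists with folds of 8.87 and 4.83 began 9 bp away. At chr3:37104086-37104372, with WT folds of 5.54 and 5.25, a DKO replicate 2 peak of fold 4.03 ended 14 bp away. In these cases the lists held peaks of both genotypes side by side that did not share a base. The other 9 adjoined a site that at least 1 WT list held too. One was chr6:3132944-3133465, which lay 153 bp from a site called in all 4 lists with folds of 11.7 and 8.28 in WT and 17.1 and 8.85 in DKO.

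At the other end were isolated sites. The region at chr13:31597374-31597596 had folds of 5.40 and 4.54 in WT replicates 1 and 2, with summits 11 bp apart, and lay 511415 bp from any DKO peak and 531368 bp from any other WT call. At chr6:101309741-101309998 the folds were 8.22 and 5.60, both WT summits fell on the same base, and the nearest call of either genotype was 477076 bp or more away. At chr9:64412220-64412480 the folds were 5.37 and 4.68, with 172934 bp to a DKO peak. The region at chr16:94068142-94068319, with folds of 6.88 and 5.13, was 149249 bp from a DKO peak but only 521 bp from another WT call, and 1 running number was skipped in DKO replicate 2 across that interval (explained below). The region at chr5:74255683-74255897, with folds of 6.40 and 4.06, lay 133821 bp from a DKO peak and 39832 bp from another WT-only region, chr5:74295730-74295904, with folds of 4.40 and 4.46. The WT libraries listed these 5 sites in long stretches without a DKO peak.

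WT-only regions were found on every autosome. Their number per chromosome ran from 5 on chromosomes 14 and 18 to 19 on chromosomes 1 and 5. As a share of the regions called in both WT lists they ran from 1.49% on chromosome 8 (7 of 471) to 3.74% on chromosome 15 (13 of 348). The share over all autosomes was 2.73%. No chromosome lacked them, and the counts per chromosome are small.

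**Figure D4:**
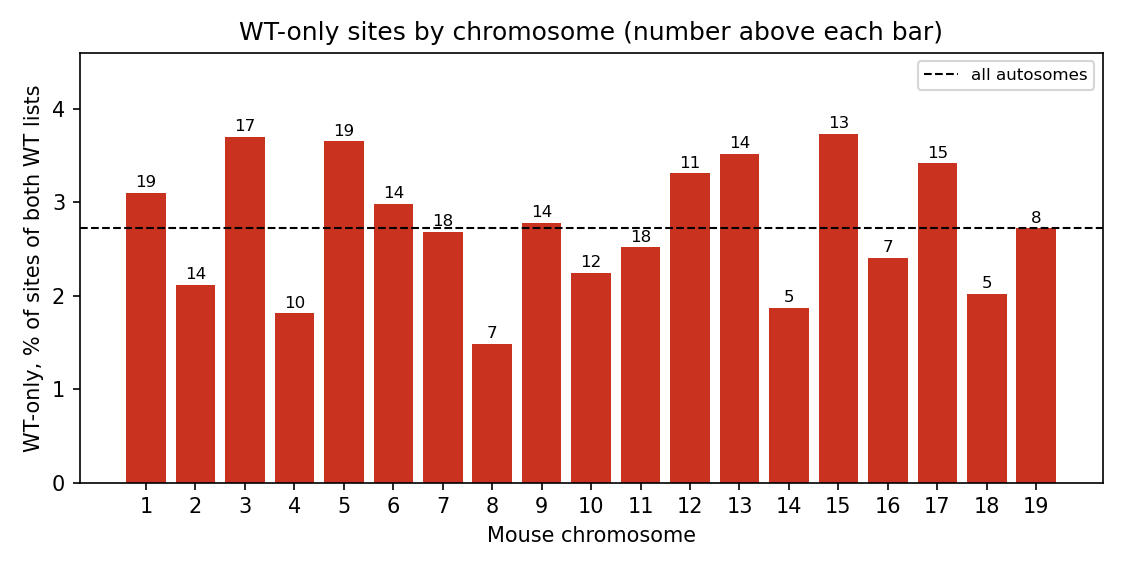
WT-only regions as a percentage of the regions called in both WT lists (y axis) on each autosome (x axis), with the number of WT-only regions above each bar and the value over all autosomes as a dashed line. Shares run from 1.49% on chromosome 8 to 3.74% on chromosome 15.

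Most WT-only regions stood alone. Next to each other on a chromosome they were a median of 5199 kb apart (quartiles 1739 and 12627 kb). Of the 240, 20 had another WT-only region within 100 kb, in 8 groups, and 220 had none. The spacing of the other sets was not measured, so wide spacing is not shown to be particular to WT-only regions.

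The largest group held 5 WT-only regions within 221 kb at chr1:85095798-85316383. Their folds ran from 4.40 to 5.88 in WT replicate 1 and from 4.79 to 6.23 in WT replicate 2. This stretch was crowded with calls that differed from list to list. It held 39 union regions, of which WT replicates 1 and 2 called 18 each and DKO replicates 1 and 2 called 17 and 20. Only 4 of the 39 were called in all 4 lists, and 4 were called in both DKO lists alone. Over all autosomes, 7949 of 38110 union regions were called in all 4 lists. The number of calls here was thus similar in the 4 libraries, although their lists differed in length. In the same order the lists held 17216, 10883, 34036 and 20934 autosomal peaks. One of the 5 regions, chr1:85316121-85316383, lay at a skip of 3 peak numbers in DKO replicate 1, a measure explained below.

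**Figure D5:**
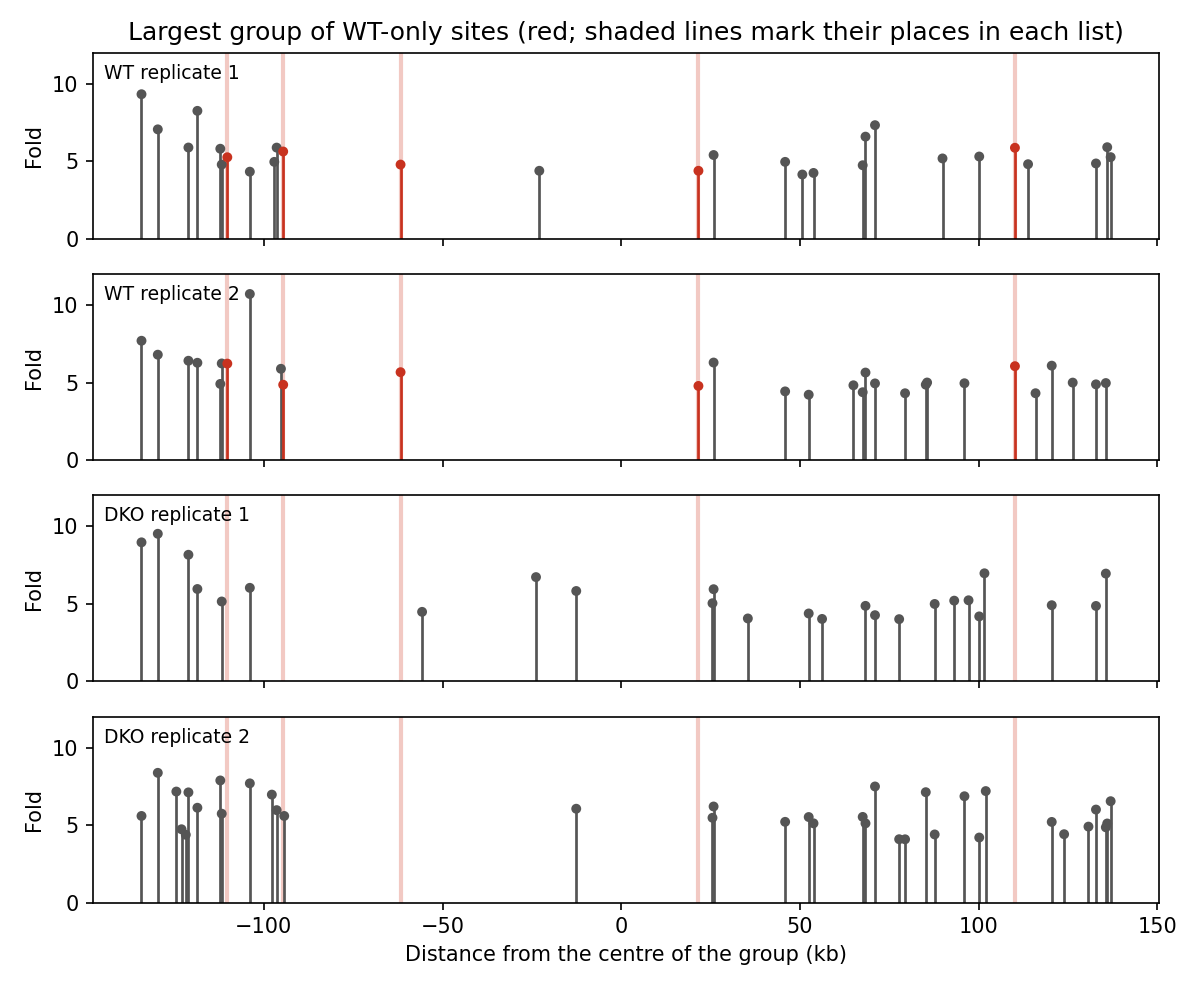
Fold enrichment (y axis) of each called region in the 4 libraries, by distance in kb from the centre of the largest group of WT-only regions (x axis), on chromosome 1. The 5 WT-only regions are red in both WT rows, shaded lines mark their places, and both DKO rows hold many other calls around them.

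The second group held 3 WT-only regions in 23.7 kb at chr3:127547946-127571615. Its rightmost pair lay 130 bp apart, at chr3:127571105-127571270, with folds of 5.81 and 5.66, and chr3:127571401-127571615, with folds of 6.46 and 5.37 in WT replicates 1 and 2. The closest pair elsewhere, 164 bp apart, was at chr15:85063494-85063613 and chr15:85063778-85063981, with folds of 4.69 and 4.29, and of 5.25 and 4.94. The peaks of these pairs share no base, so each pair was counted as separate regions. The next closest pair, 7639 bp apart, was chr3:10205215-10205409, with folds of 6.40 and 5.58, and chr3:10213049-10213389, with folds of 5.77 and 9.10. The strongest region, at chr7:134772289-134772558, also had a WT-only neighbour 17395 bp away, chr7:134789954-134790144, with folds of 6.40 and 4.26. Both DKO lists were empty across these last 3 pairs.

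The numbering of the peaks bears on the absence of calls. Peak names carry running numbers that follow position, and all 4 lists skip some, as they would if peaks had been taken out after calling. The WT lists skip 1530 numbers (replicate 1) and 871 (replicate 2), and the DKO lists skip 1476 (replicate 1) and 908 (replicate 2). In DKO replicate 1, 21 of 239 WT-only regions (8.79%) lay between neighbouring peaks with a skipped number, and in DKO replicate 2, 25 of 239 (10.5%). In each list 1 region at a chromosome end could not be placed. For regions called in both WT lists and in DKO replicate 1 alone, 56 of 554 (10.1%) lay at a skip of DKO replicate 2. For those called in both WT lists and in DKO replicate 2 alone, 7 of 40 (17.5%) lay at a skip of DKO replicate 1. A skip was thus about as common beside WT-only regions in DKO replicate 2 and less common in DKO replicate 1, where the set beside it is small, and neither difference was tested. The intervals with a skip had a median length of 55842 bp in DKO replicate 1 and 122923 bp in DKO replicate 2, so a peak with a skipped number need not have lain at the WT-only region. In all, 42 WT-only regions had a skip in at least 1 DKO list, and none was found for 198. These 198 include chr6:3132944-3133465, the region that could not be placed in either DKO list. Of the 10 with the highest lower fold, chr10:19041426-19041964 and chr4:125889175-125889386 lay at a skip of 1 number in DKO replicate 2.

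One WT-only region stood apart by its background. At chr11:3026983-3027613, the widest at 631 bp, pileups reached 71 and 67 fragments over backgrounds of 15.2 and 13.8 in WT replicates 1 and 2, so the folds were only 4.45 and 4.59. The median background of all listed peaks was 2.1 and 2.0 in these libraries. This was the single WT-only region with a background over 5 in either WT list. Between the DKO peaks that flank it, 3 running numbers were skipped in DKO replicate 1 and 63 in DKO replicate 2. The part of these skipped numbers in the absence of a DKO call there was not tested.

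Neighbouring genes, motifs and sequences are not given, because the positions are mm9 and no mm9 annotation or genome was used here. For the same reason the labelled cell type was not checked against its marker genes.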

How the data were processed

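DNase-seq peak lists of 2 WT and 2 DKO libraries were used, grouped by sample title. The submitters' processing notes name FastQC, Bowtie2 2.2.5, MACS2 2.1.1 and build mm9, but no settings, control library or duplicate handling. Each deposited list gives, per peak, the authors' fold (a ratio of summit pileup to local background), −log10 p, −log10 q, a score of 10 times the −log10 q, and the summit. Folds are the authors' own and were ranked within a list.

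Peaks overlapping by at least 1 bp were merged, and the highest fold per library was kept. Pileup and background were solved for peaks with −log10 p under 250, from fold = (pileup + 1) / (background + 1) and the Poisson tail, and gave whole pileups for 100% of them. Merging, classing, distances and solving were tested on simulated data. Read depth is unknown. With 2 libraries against 2 the smallest exact two-sided permutation p is 0.33, and no test was run.

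The rule, lists and tests were chosen with earlier results of these data known. Named regions are the 10 with the highest lower WT fold, the 5 widest, the 5 farthest from and the 5 nearest to a DKO peak, the closest pairs, those at or above the 75th percentile of both WT lists, and 5 on each side of the rule's edge; examples are given from each set. The group on chromosome 1 and other group members were named after their values were seen. Alternatives were −log10 q of at least 5 or 10, equal list lengths (11073 peaks), a call covering at least 50% of the WT-covered bases, merging within 500 bp, leaving out each library and, added after seeing the data, leaving out regions at skipped DKO peak numbers. Python 3.11.15, pandas 2.3.3, numpy 2.4.6, scipy 1.17.1 and matplotlib 3.10.9 were used.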

Additional observations from a re-analysis of the deposited data

How the results depend on the processing

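The number of WT-only autosomal regions (240) was 132 and 47 at −log10 q of at least 5 and 10, and 831 at equal list lengths, where peaks of both DKO lists and of WT replicate 1 were removed. Of the 240, these settings kept 102, 20 and 108. It was 226 with peaks within 500 bp merged, 347 when a call had to cover 50% of the WT-covered bases, and 198 without regions at skipped DKO numbers. Leaving out a library, which can only add regions, gave 279 (DKO replicate 2) to 1857 (WT replicate 2), with 814 without WT replicate 1 and 790 without DKO replicate 1. The median lower fold (4.91) was 5.93, 7.55 and 5.62 at the 2 q minimums and equal lengths, and 4.76 to 5.01 without each library. The median width (218 bp) was 231.5 bp at the lower q minimum, 234 bp under the coverage rule and 129 to 218 bp without each library, the lowest being 130 and 129 bp without WT replicates 1 and 2, where 1 WT list alone sets it. The median distance to a DKO peak (7939 bp) was 19878 bp at equal lengths, 962 bp under the coverage rule, which admits regions that touch a DKO peak, and 6415.5 to 13341 bp without each library. No paired analysis was possible because the results come from no test, and the labels state no pairing of the replicates beyond shared numbers. Depth is unknown, so a missing DKO call does not show how much signal there was below the listing thresholds.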
